A study of Mus musculus and Rattus norvegicus with 28 samples.

Results

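In mouse and rat cardiomyocytes around birth, the age at which these cells leave the cell cycle, 45 genes of DNA replication and mitosis were examined. They were taken from a fixed list of gene symbols, which was chosen with earlier results of these data known. Of the 45 genes, 15 act around S phase and 30 act in mitosis and cell division. All 45 were named among the 55450 genes of the mouse files, and 43 were named among the 32623 genes of the rat files, where E2f1 and Ccnb2 were not matched by symbol. Every matched gene passed the filter on low values, which left 13979 mouse and 13625 rat genes for testing.

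Mouse cardiomyocytes were isolated from the left ventricles of wild-type C57BL/6 mice of both sexes at embryonic day 18.5 (E18.5) and at postnatal days 1, 3 and 7 (P1, P3 and P7). Each time point had 2 RNA-seq libraries and 2 ATAC-seq libraries, the latter marking DNA that a transposase can reach. Neonatal rat ventricular cardiomyocytes (NRVCs) came from P1 Sprague Dawley rats of both sexes, were plated, and received one day later either 100 nM trichostatin A (TSA), an inhibitor of histone deacetylases, or DMSO as the vehicle control, with 3 RNA-seq libraries each. In both species the cells were enriched by letting other cells attach to plastic and were not sorted on a marker, and how many animals went into each library is not given in the sources used here. The study describes its replicates as biological. The 6 HiChIP libraries were not analysed here.

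Replication starts when the MCM helicase, loaded onto DNA with the help of Cdc6, is switched on by cyclin E with Cdk2 under the control of E2F factors. Pcna then clamps the polymerases to DNA, and ribonucleotide reductase (Rrm1 and Rrm2) and thymidylate synthase (Tyms) supply the nucleotides. Mitotic genes are switched on later in the cycle, when B-Myb and Foxm1 act on promoters that carry the cell cycle homology region (CHR) and CCAAT boxes, and their products build the kinetochore, the spindle and the cleavage furrow. Rodent cardiomyocytes are known for a last round of DNA synthesis after birth that often ends without cytokinesis and leaves cells with more than one nucleus.

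Promoter sequences of 38 of the 45 genes could be matched in RefSeq (GRCm38.p6, the build also called mm10), from 250 bases before to 50 bases after the transcript start. Aurkb, Ccna2, Ccne2, Foxm1, Kif20a, Mcm4 and Tpx2 had no entry. Where a gene had several starts, the start nearest to the ATAC-seq summits was taken. Even so, the windows of E2f1, Cdc6, Cdca3 and Nusap1 held the strongest summit of 0 libraries. Those of Tyms and Mcm7 held it in 1 and 2 libraries, so letters were partly searched away from the strongest peak. The CHR letters TTTGAA and TTCGAA, the CCAAT box CCAAT, and the E2F letters TTTCCCGC, TTTGGCGC, TTTCGCGC and TTTGCCGC were searched on both strands, and AP1 letters (TGAGTCA and TGACTCA) were searched as well. CHR letters were in 20 of 25 mitotic promoters and in 1 of 13 S phase promoters, against 16.9% of all 20150 promoters of the same length. Within 50 bases of the start they were in 19 mitotic and 0 S phase promoters, against 4.21% of all. CCAAT was in 20 mitotic and 9 S phase promoters, against 37.8% of all. E2F letters were in 5 S phase promoters and 1 mitotic promoter, against 2.87% of all. AP1 letters were in none of the 38, against 4.65% of all. The 20150 promoters were all listed starts of protein-coding genes, chosen neither by ATAC-seq summits nor by RNA level, so they are not a like set. These are matches of letters and not measured binding.

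Shown are 6 promoters, 5′ to 3′, because results turn on these genes: Mcm5 as a helicase gene, Tyms with the largest rise in mouse, Cdk1 and Plk1 as kinase genes that rose in mouse, Cdc20, which fell in rat, and Cenpa, which fell in mouse. Capitals mark CHR, CCAAT and E2F letters, and the transcript start follows the first 250 bases.
Mcm5, chr8:75109259-75109558 (plus strand): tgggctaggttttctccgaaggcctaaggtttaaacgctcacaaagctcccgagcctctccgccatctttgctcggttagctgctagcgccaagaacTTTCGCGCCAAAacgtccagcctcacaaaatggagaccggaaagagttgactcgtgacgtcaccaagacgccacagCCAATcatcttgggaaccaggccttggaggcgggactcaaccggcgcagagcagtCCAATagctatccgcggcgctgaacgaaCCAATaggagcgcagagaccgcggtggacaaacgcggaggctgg
Tyms, chr5:30073576-30073875 (minus strand): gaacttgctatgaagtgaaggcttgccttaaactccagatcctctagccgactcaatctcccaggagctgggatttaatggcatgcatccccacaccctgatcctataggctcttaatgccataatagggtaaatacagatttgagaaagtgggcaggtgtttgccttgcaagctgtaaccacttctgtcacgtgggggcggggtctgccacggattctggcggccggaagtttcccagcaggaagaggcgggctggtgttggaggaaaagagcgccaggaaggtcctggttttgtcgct
Cdk1, chr10:69352863-69353162 (minus strand): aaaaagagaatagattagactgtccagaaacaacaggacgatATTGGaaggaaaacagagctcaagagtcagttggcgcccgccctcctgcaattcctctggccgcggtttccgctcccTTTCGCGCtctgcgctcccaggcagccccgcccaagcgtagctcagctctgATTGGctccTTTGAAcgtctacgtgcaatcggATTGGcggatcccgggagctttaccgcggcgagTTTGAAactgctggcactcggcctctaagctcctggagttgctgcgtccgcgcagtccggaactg
Plk1, chr7:122159185-122159484 (plus strand): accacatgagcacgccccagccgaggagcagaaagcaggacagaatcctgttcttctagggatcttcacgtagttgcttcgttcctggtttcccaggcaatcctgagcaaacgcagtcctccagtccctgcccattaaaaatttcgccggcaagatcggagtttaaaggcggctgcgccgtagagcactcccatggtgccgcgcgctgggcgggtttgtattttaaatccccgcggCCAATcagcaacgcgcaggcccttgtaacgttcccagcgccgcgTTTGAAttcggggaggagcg
Cdc20, chr4:118437294-118437593 (minus strand): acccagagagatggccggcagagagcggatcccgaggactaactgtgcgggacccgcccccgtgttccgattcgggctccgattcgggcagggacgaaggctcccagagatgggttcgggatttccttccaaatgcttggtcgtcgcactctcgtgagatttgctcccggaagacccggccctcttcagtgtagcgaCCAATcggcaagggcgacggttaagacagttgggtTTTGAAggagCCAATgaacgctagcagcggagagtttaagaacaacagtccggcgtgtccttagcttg
Cenpa, chr5:30666636-30666935 (plus strand): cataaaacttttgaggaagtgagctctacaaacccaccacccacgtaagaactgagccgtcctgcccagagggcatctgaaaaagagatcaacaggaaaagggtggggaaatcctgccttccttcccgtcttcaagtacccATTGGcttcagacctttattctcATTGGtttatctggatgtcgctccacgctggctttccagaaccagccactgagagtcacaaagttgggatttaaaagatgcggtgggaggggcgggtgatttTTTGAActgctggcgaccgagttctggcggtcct
The Mcm5 window held 2 E2F matches, which overlap, and 3 CCAAT boxes. In Plk1, Cdc20 and Cenpa a CHR match lay near the start together with CCAAT boxes, and Cdk1 held CHR, CCAAT and E2F letters. The Tyms window held none of the searched letters, and it held the strongest summit of 1 library only.

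Levels are given as FPKM (fragments per kilobase of transcript scaled to the number of mapped fragments), which allows comparison between genes per length. Mouse libraries held 29.3 to 37.5 M aligned reads and rat libraries 28.2 to 38.5 M. The makeup of the mouse libraries moved with age. The summed FPKM of 12 cardiomyocyte markers was 29918 to 38836 at E18.5, 14921 to 23525 on P1, 8065 to 9935 on P3 and 1126 to 2538 on P7. None of these 12 was under 0.1 FPKM in both libraries of an age, and at P7 all 12 had fallen by the test against E18.5. Over the same ages the sum of 10 fibroblast markers went from between 470.2 and 479 to between 2973 and 3710.0, with 9 of 10 called higher at P7. Smooth muscle and pericyte markers went from between 431 and 559.6 to between 1671 and 1879, with 5 of 10 called higher and 3 called lower at P7. Macrophage markers summed to between 61.3 and 65.7 at E18.5 and to between 120.4 and 197.5 later. At P7 5 of the 9 tested had a log2 fold change below 0, 1 was called higher and 1 lower. Endothelial markers summed to between 282 and 550.1 over all libraries, with 1 of 10 called higher and 2 called lower at P7. Erythroid markers summed to 29047 and 35396 at E18.5 and to at most 41.2 later, when Gata1, Epb42 and Slc4a1 were under 0.1 FPKM. In rat the third library of each group stood apart from the other 2, with more TPM in its 10 most abundant genes (7.55% with DMSO and 8.45% with TSA, against 5.18 to 5.71%).

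After birth some genes of the replicative helicase and of nucleotide supply rose relative to E18.5, and others did not pass. Of 7 genes of the helicase and its loading, 2, 4 and 3 passed the test as higher at P1, P3 and P7. Of 4 genes of the clamp and nucleotide supply, 2 passed at each age. The share of mitotic genes that passed the test as higher, with its limit of size, was near or below that of all genes. At P7 the median log2 fold change of both phases lay above that of all genes, and whether the phases differ was not tested. No member was called between the postnatal ages. A gene was called when limma's Benjamini-Hochberg adjusted p was under 0.05 and its log2 fold change of FPKM + 1 was above 1 in size. Of the 15 S phase genes, 4 rose at P1, 6 at P3 and 5 at P7 relative to E18.5, against 10.1%, 13.0% and 15.4% of all genes tested. None of the 15 fell, and limma-voom called 0 lower as well. At an unadjusted p under 0.05 by limma 0 were lower, against 2473, 2874 and 3467 of all 13979 genes at P1, P3 and P7. Of the 30 mitotic genes, 2 rose at P1, 5 at P3 and 5 at P7, which is 6.67%, 16.7% and 16.7% beside the shares of all genes just given. Cenpa alone fell, at P1 and P7, against 6.06% of all genes called lower at P1, 8.88% at P3 and, at P7, 12.3%. Without the limit of size, an unadjusted limma p under 0.05 was read for both phases at P1, P3 and P7. On the higher side stood 7, 7 and 9 S phase and 12, 16 and 17 mitotic genes, against 4539, 4890 and 4980 of 13979 genes. On the lower side stood 2, 1 and 1 mitotic genes. By P7 the median log2 fold change was 0.50 for the S phase genes, 0.44 for the mitotic genes and 0.14 for all genes. All 6 postnatal libraries lay above both E18.5 libraries for 8 S phase and 15 mitotic genes, against 35.4% of all genes, and below them for 0 S phase and 2 mitotic genes, against 19.9%. In these bulk samples fewer cells of a type and less RNA per cell cannot be told apart. The part of the change in other cell types' markers in these results was not tested.

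The E18.5 libraries also set the scale. With median-of-ratios size factors in place of the FPKM scaling, the median of all genes at P1, P3 and P7 moved from 0.15, 0.16 and 0.14 to -0.01, -0.02 and -0.01. The calls over all genes then went from 1411 higher and 847 lower to 1012 and 1201 at P1, from 1814 and 1241 to 1367 and 1626 at P3, and from 2155 and 1715 to 1727 and 2072 at P7. Under size factors 3, 4 and 4 S phase genes and 1, 2 and 3 mitotic genes rose at P1, P3 and P7, and Cenpa fell at each, beside 7.24%, 9.78% and 12.4% of all genes called higher. The 1, 2 and 3 mitotic genes are 3.33%, 6.67% and 10% of 30, below the share of all genes at each age. The calls of Mcm3 and Plk1 at P1, of Mcm2, Mcm5, Cdk1, Foxm1 and Tpx2 at P3, and of Mcm5, Cdk1 and Aurkb at P7 were lost. On TPM, which is scaled to the same total in each library, 12, 17 and 18 members rose and 0 fell, but the median of all genes was then 0.33, 0.36 and 0.35, and 16.6%, 19.7% and 21.9% of all genes were called higher. Without the second E18.5 or the second P1 library 10 members rose at P1 in place of 6. No member called in the main comparison changed direction in any of these.

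**Figure D1:**
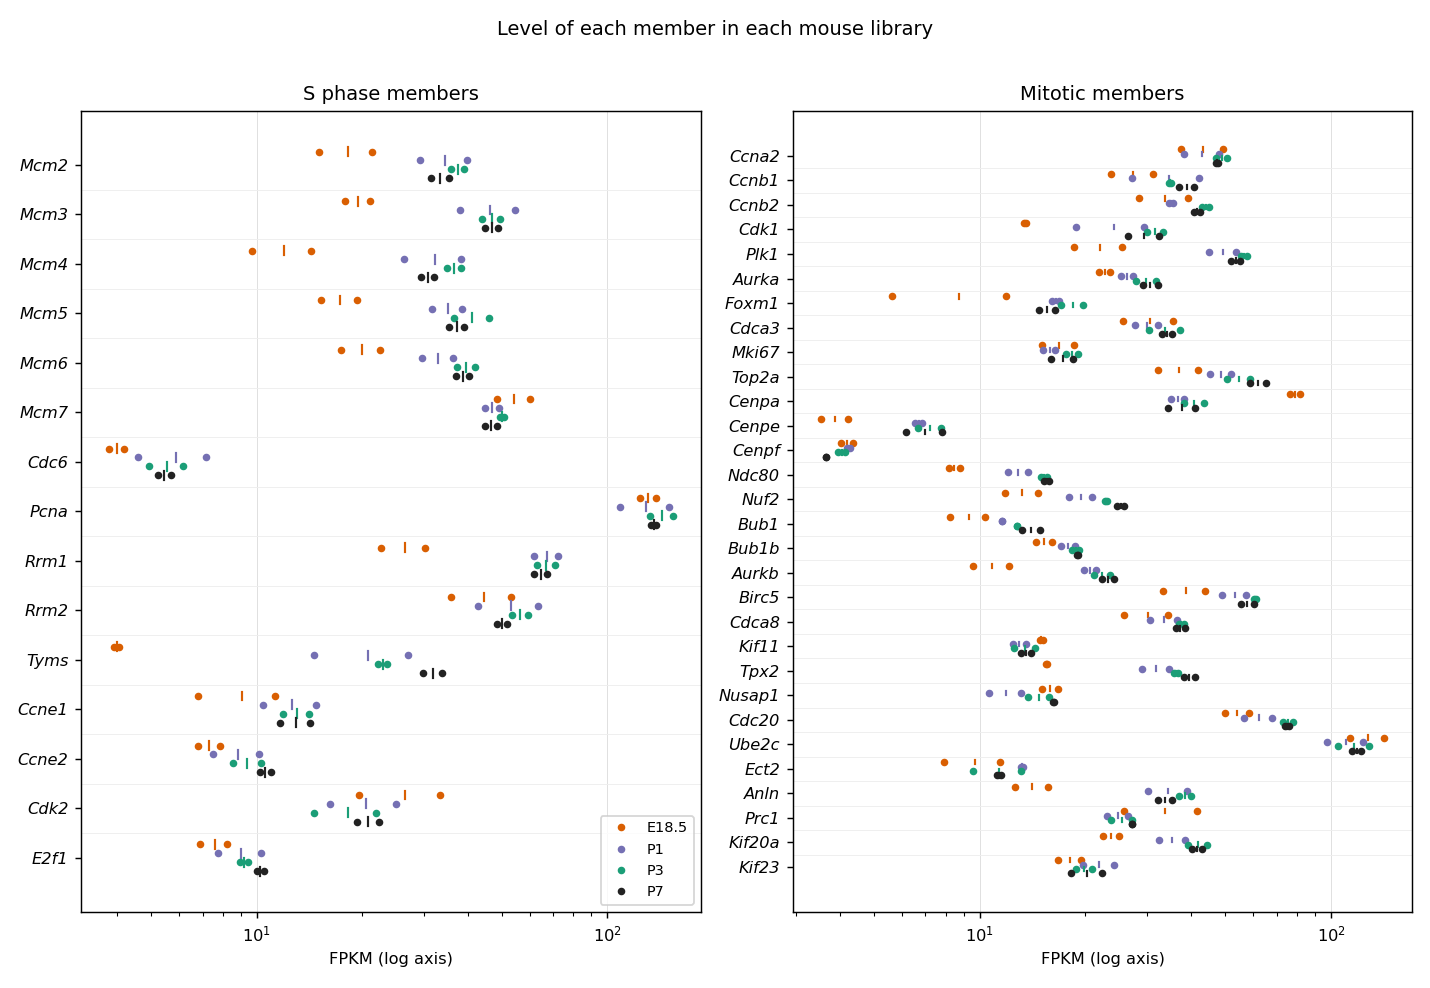
Level of each of the 45 genes in each mouse library, as FPKM on a log axis, with 1 point per library, a short vertical line at the mean of the 2 libraries of a time point, and a colour for each time point. The E18.5 points lie left of all later points for Tyms, Rrm1, Plk1, Tpx2 and Anln, and right of them for Cenpa.

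Of the 6 subunits of the replicative helicase 4 rose at 1 or more ages. Mcm2 to Mcm6 were at 9.66 to 22.4 FPKM at E18.5 and at 26.3 to 54.6 FPKM later, while Mcm7, which shares 7.25% of its exon bases with Ap4m1 on the other strand, was already at 48.4 and 60.0 FPKM at E18.5 and did not pass the test at any age. Mcm2 measured 15.1 and 21.4 FPKM in the E18.5 libraries, 39.8 and 29.2 on P1, 39.1 and 35.9 on P3, then 35.3 and 31.3 on P7, a log2 fold change of 0.89, 1.02 and 0.85. It passed at P3 only (adjusted p = 0.00391), and without the first E18.5 or the first P3 library its value there was 0.78 or 0.96. Its postnatal libraries did not overlap those at E18.5. Mcm5 measured 15.2 and 19.3 FPKM in the E18.5 libraries, 38.5 and 31.6 on P1, 45.9 and 36.4 on P3, then 39.0 and 35.4 on P7, with log2 fold changes of 0.98, 1.21 and 1.07. It rose at P3 and P7 (adjusted p = 9.52e-04 and 0.00121), with no overlap between E18.5 and later libraries, and its P7 value was 0.91 without the first E18.5 library. Mcm3 rose at all 3 ages, with log2 fold changes of 1.195, 1.23 and 1.23 (adjusted p = 0.00171, 0.00106 and 7.48e-04), although its P1 value was 0.94 without the first P1 library. Mcm4 did so with 1.36, 1.56 and 1.31 (adjusted p = 0.00219, 8.26e-04 and 0.00135). Mcm6 stayed under the limit of size with 0.70, 0.97 and 0.94, at adjusted p values of 0.0107, 0.00195 and 0.00173. The loading factor Cdc6 was the lowest of the group at 4.19 and 3.79 FPKM in the E18.5 libraries, 7.15 and 4.59 on P1, 6.17 and 4.92 on P3, then 5.68 and 5.21 on P7, and it did not pass at any age.

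Among the genes for nucleotide supply, Tyms had the largest rise of all 45 genes. It measured 3.92 and 4.04 FPKM in the E18.5 libraries, 27.0 and 14.5 on P1, 23.6 and 22.1 on P3, then 33.8 and 29.8 on P7, and its log2 fold changes were 2.07 ± 0.25, 2.26 ± 0.25 and 2.72 ± 0.25 (± SE, 2 libraries per time point; adjusted p = 6.02e-04, 2.71e-04 and 6.78e-05). The 2 E18.5 libraries were almost equal and lay far below the other 6. Rrm1, the large subunit of ribonucleotide reductase, rose with log2 fold changes of 1.32, 1.32 and 1.27 (adjusted p = 6.97e-04, 4.64e-04 and 3.74e-04). Its partner Rrm2 measured 35.8 and 53.0 FPKM in the E18.5 libraries, 63.5 and 42.7 on P1, 59.2 and 53.3 on P3, then 51.8 and 48.3 on P7 and did not pass. Both Rrm2 libraries of P3 lay just above both of E18.5, while those of P1 and P7 overlapped them. Pcna was the most abundant S phase gene at 124 and 138 FPKM in the E18.5 libraries, 150.1 and 109 on P1, 154 and 132 on P3, then 138 and 134 on P7. Its time points overlapped and its log2 fold changes were -0.03, 0.13 and 0.05.

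None of the drivers of S phase entry passed. Cyclin E1 (Ccne1) measured 6.79 and 11.3 FPKM in the E18.5 libraries, 14.7 and 10.4 on P1, 14.1 and 11.9 on P3, then 14.2 and 11.7 on P7. Cyclin E2 (Ccne2), which shares 17.4% of its exon bases with Ints8 on the other strand, measured 6.79 and 7.86 FPKM in the E18.5 libraries, 10.2 and 7.50 on P1, 10.2 and 8.53 on P3, then 10.2 and 10.9 on P7. The kinase they bind, Cdk2, measured 19.5 and 33.3 FPKM in the E18.5 libraries, 24.9 and 16.2 on P1, 14.6 and 21.8 on P3, then 22.3 and 19.4 on P7. Its log2 fold changes, -0.33, -0.49 and -0.29, were the lowest of the S phase genes, and its libraries overlapped. The transcription factor E2f1 measured 6.90 and 8.24 FPKM in the E18.5 libraries, 10.3 and 7.75 on P1, 9.45 and 8.94 on P3, then 10.01 and 10.5 on P7. Ccne1, Ccne2 and E2f1 had values from 0.22 to 0.51 on the log2 scale at the 3 ages, and the lowest adjusted p among them was 0.0516 for Ccne2 at P7.

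Plk1, Cdk1 and Foxm1 rose at 1 or more ages, while the mitotic cyclins did not pass. Plk1, a kinase needed from mitotic entry to cytokinesis, measured 18.5 and 25.4 FPKM in the E18.5 libraries, 53.6 and 44.99 on P1, 55.5 and 57.8 on P3, then 51.8 and 55.2 on P7. Its log2 fold changes were 1.14, 1.34 and 1.26 (adjusted p = 0.00136, 4.47e-04 and 4.03e-04), and E18.5 did not overlap any later age. Plk1 shares 7.09% of its exon bases with a gene model on the other strand. Without the first E18.5 library its P1 value was 0.92. Cdk1, the kinase that drives mitotic entry, measured 13.5 and 13.3 FPKM in the E18.5 libraries, 29.4 and 18.8 on P1, 33.1 and 29.9 on P3, then 32.4 and 26.4 on P7. It rose at P3 and P7 (log2 fold change 1.17 and 1.07, adjusted p = 0.00234 and 0.00283), and its P7 value was 0.93 without the first P7 library. With size factors it was called at neither age (0.96 and 0.89). Its cyclin partners had smaller values. Ccnb1 measured 31.1 and 23.6 FPKM in the E18.5 libraries, 42.1 and 27.2 on P1, 34.5 and 35.1 on P3, then 37.0 and 40.8 on P7, with log2 fold changes of 0.31, 0.35 and 0.50, none of which passed. Ccna2 measured 37.4 and 49.2 FPKM in the E18.5 libraries, 47.9 and 38.1 on P1, 50.4 and 47.2 on P3, then 47.7 and 47.0 on P7, with -0.0047, 0.18 and 0.14, and shares 12.5% of its exon bases with Exosc9 on the other strand. Foxm1, the transcription factor of the mitotic programme, measured 5.62 and 11.9 FPKM in the E18.5 libraries, 16.9 and 16.03 on P1, 17.1 and 19.7 on P3, then 16.3 and 14.7 on P7. The first E18.5 library was the lowest, and the second lay below all later ones. Foxm1 rose at P3 only (1.07 ± 0.27, adjusted p = 0.0130), and that value was 0.59 without the first E18.5 library and 0.97 (adjusted p = 0.0702) without the second P3 library. Without a filter on low values it was 1.07, with an adjusted p of 0.0519.

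**Figure D2:**
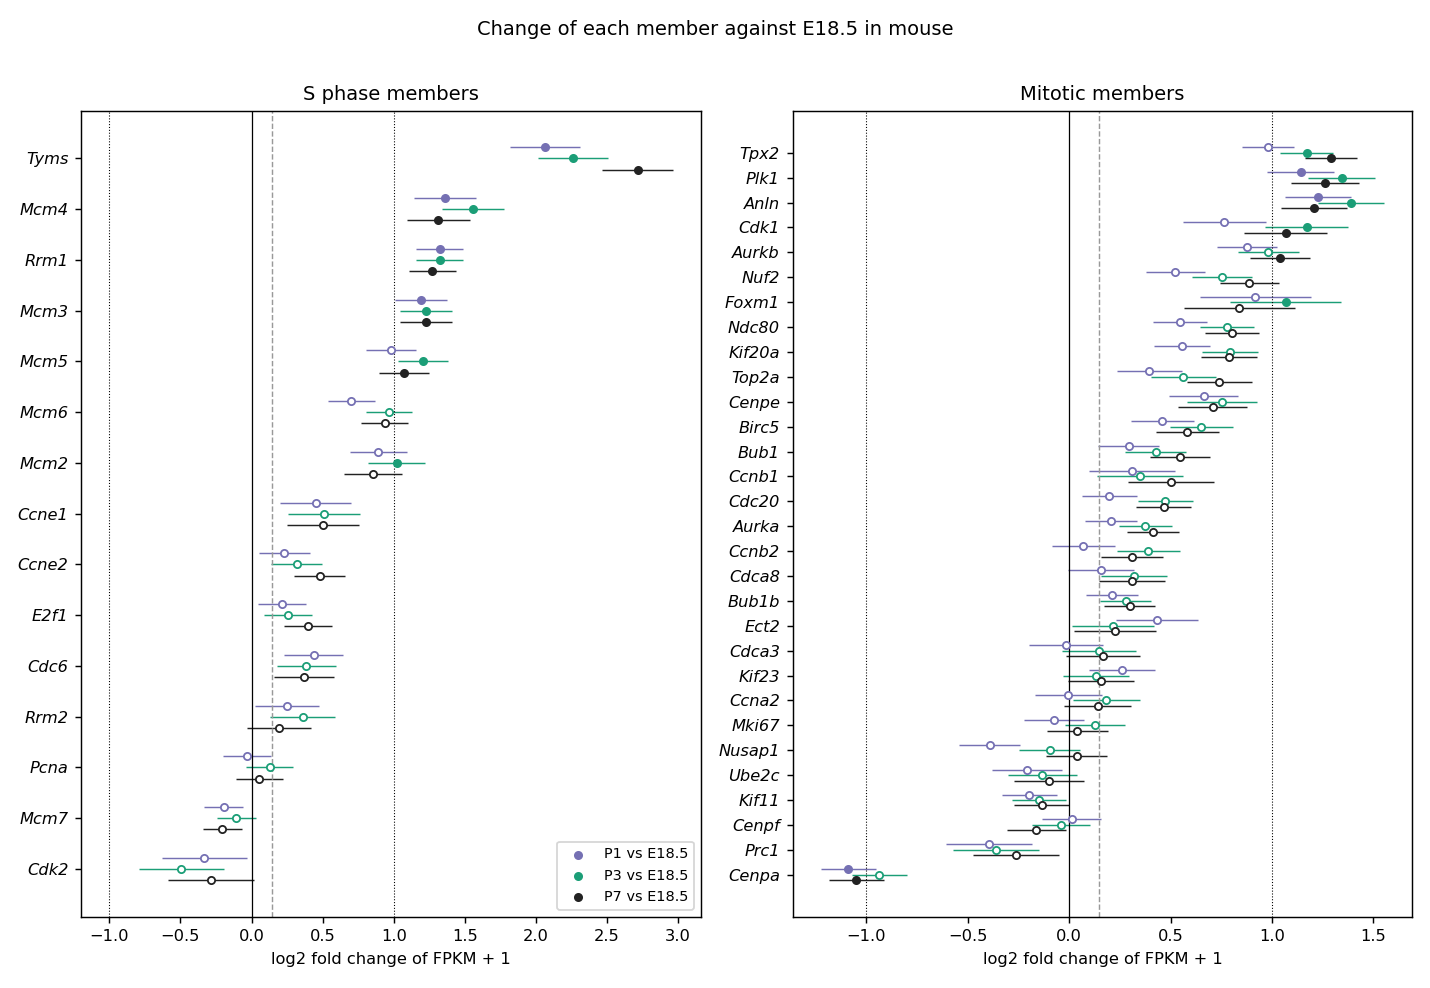
Log2 fold change of FPKM + 1 against E18.5 for the 15 S phase and 30 mitotic genes at P1, P3 and P7, with bars of 1 SE; filled points passed the test, dotted lines mark a size of 1 and the dashed line the median of all genes at P7 (0.14). Tyms reached 2.72 at P7, Mcm3, Mcm4 and Rrm1 lay between 1.23 and 1.31, and Cenpa lay at -1.05.

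The proliferation marker Mki67 and the topoisomerase gene Top2a did not pass. Mki67 measured 15.0 and 18.5 FPKM in the E18.5 libraries, 16.4 and 15.2 on P1, 17.6 and 19.1 on P3, then 16.01 and 18.5 on P7, a range of 15.0 to 19.1 FPKM in which the ages overlapped. Its log2 fold changes were -0.07, 0.13 and 0.04. Top2a, which untangles sister chromatids, measured 32.3 and 41.7 FPKM in the E18.5 libraries, 52.0 and 45.4 on P1, 59.0 and 50.7 on P3, then 58.8 and 65.4 on P7. Every later library of Top2a lay above both E18.5 libraries, with log2 fold changes of 0.40, 0.56 and 0.74 (adjusted p = 0.0816, 0.0200 and 0.00496), under the limit of size.

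Cenpa, the histone variant that marks the centromere, was the only member that fell in mouse. It measured 76.4 and 81.5 FPKM in the E18.5 libraries, 35.1 and 38.1 on P1, 43.5 and 38.3 on P3, then 34.4 and 41.1 on P7, so both E18.5 libraries were far above the other 6. Its log2 fold changes were -1.09 ± 0.14, -0.94 ± 0.14 and -1.05 ± 0.14 (adjusted p = 6.94e-04, 9.41e-04 and 3.64e-04), called at P1 and P7. At P7 the value was -0.92 without the first P7 library, and on TPM it was -0.86, -0.69 and -0.80, lower at each age but not called. Ndc80, which holds microtubules at the kinetochore, measured 8.79 and 8.16 FPKM in the E18.5 libraries, 13.7 and 12.02 on P1, 15.5 and 14.9 on P3, then 15.3 and 15.7 on P7. Its log2 fold changes of 0.55, 0.78 and 0.80 had adjusted p values of 0.0126, 0.00203 and 0.00130 and were under the limit of size, as were those of its partner Nuf2 at 0.52, 0.75 and 0.89. The checkpoint kinase Bub1 measured 8.24 and 10.4 FPKM in the E18.5 libraries, 11.6 and 11.6 on P1, 12.8 and 12.8 on P3, then 13.2 and 14.8 on P7, with 0.29, 0.43 and 0.55. Cenpf, a kinetochore protein of the outer plate, measured 4.36 and 4.04 FPKM in the E18.5 libraries, 4.20 and 4.28 on P1, 3.96 and 4.15 on P3, then 3.64 and 3.65 on P7, with 0.01, -0.04 and -0.16. Both Cenpf libraries of P7 lay below both of E18.5, those of P1 and P3 overlapped them, and no value passed.

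In the chromosomal passenger complex, which corrects attachments of chromosomes, Aurkb measured 9.56 and 12.1 FPKM in the E18.5 libraries, 21.5 and 19.8 on P1, 23.5 and 21.1 on P3, then 24.1 and 22.3 on P7. It rose at P7 (1.04 ± 0.15, adjusted p = 6.27e-04), and without the first E18.5 or first P7 library that value was 0.88 or 0.99. Birc5, another subunit, measured 33.3 and 43.9 FPKM in the E18.5 libraries, 57.2 and 49.1 on P1, 60.3 and 61.0 on P3, then 60.3 and 55.4 on P7. The postnatal libraries of both genes lay above both E18.5 libraries, and Birc5 had log2 fold changes of 0.46, 0.65 and 0.58 at adjusted p values of 0.0446, 0.00927 and 0.0131.

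Of the spindle genes Tpx2 rose. Tpx2, which activates Aurora A on spindle microtubules, measured 15.6 and 15.5 FPKM in the E18.5 libraries, 34.5 and 28.9 on P1, 36.7 and 35.7 on P3, then 38.1 and 40.9 on P7 and rose at P3 and P7 (log2 fold change 1.17 and 1.29, adjusted p = 2.73e-04 and 1.004e-04), with 0.96 and no call at P3 under size factors. The motor Kif11, which pushes the spindle poles apart, measured 14.8 and 15.1 FPKM in the E18.5 libraries, 13.5 and 12.4 on P1, 12.5 and 14.4 on P3, then 13.1 and 14.0 on P7. The 6 later Kif11 libraries lay just below both E18.5 libraries, and its log2 fold changes of -0.20, -0.15 and -0.14 did not pass.

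Of the genes that end mitosis and divide the cell, Anln passed. Anln, a scaffold of the cleavage furrow, measured 12.6 and 15.7 FPKM in the E18.5 libraries, 38.8 and 30.1 on P1, 39.9 and 36.9 on P3, then 35.2 and 32.3 on P7, with log2 fold changes of 1.23, 1.39 and 1.21 (adjusted p = 9.45e-04, 3.70e-04 and 4.83e-04) and no overlap with E18.5. Kif20a, a motor of the midzone, measured 22.5 and 24.9 FPKM in the E18.5 libraries, 38.3 and 32.4 on P1, 44.3 and 39.2 on P3, then 43.1 and 40.1 on P7, with 0.56, 0.79 and 0.79 at adjusted p values of 0.0132, 0.00215 and 0.00167. In mouse 29.3% of its exon bases are shared with Cdc23 on the other strand, and reads within the shared bases cannot be told apart without strand. Prc1, which bundles midzone microtubules and shares 11.1% of its exon bases with Rccd1 on the other strand, measured 41.6 and 25.7 FPKM in the E18.5 libraries, 26.4 and 23.0 on P1, 27.1 and 23.6 on P3, then 27.2 and 27.1 on P7. One of its E18.5 libraries was above and the other within the range of the later ones. The cytokinesis activator Ect2 measured 7.92 and 11.4 FPKM in the E18.5 libraries, 13.3 and 13.1 on P1, 13.1 and 9.57 on P3, then 11.5 and 11.2 on P7. Both Ect2 libraries of P1 lay above both of E18.5, those of P3 and P7 overlapped them, and no value passed. Cdc20, which activates the anaphase-promoting complex, measured 49.9 and 58.4 FPKM in the E18.5 libraries, 68.0 and 56.5 on P1, 77.7 and 73.1 on P3, then 75.8 and 74.1 on P7, with 0.20, 0.47 and 0.47. Its partner Ube2c, the most abundant mitotic gene and one that shares 22.8% of its exon bases with Tnnc2 on the other strand, measured 113 and 142 FPKM in the E18.5 libraries, 123 and 97.2 on P1, 128 and 105 on P3, then 122 and 115 on P7. Neither Cdc20 nor Ube2c passed. Of the mitotic genes not given by library, Ccnb2, Aurka, Cdca3, Cenpe, Bub1b, Cdca8, Nusap1 and Kif23 had log2 fold changes at P7 from 0.04 for Nusap1 to 0.71 for Cenpe, and none was called.

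Among the postnatal ages no member passed the test. Between P3 and P1 no member was called, against 0.0143% of all genes. None had an unadjusted p under 0.05 by limma, against 1577 of 13979 genes. Between P7 and P1 none was called, against 8.91% of all genes. By unadjusted p 1 S phase and 3 mitotic genes were under 0.05, against 4334 of 13979 genes. Between P7 and P3 none was called, against 3.55%, and none had an unadjusted p under 0.05, against 2589 of 13979 genes. Limma-voom called 0 members in these 3 comparisons. The 45 log2 fold changes of P7 against P1 ran from -0.21 for Ect2 to 0.65 for Tyms, which was called at 1.08 without the first P1 library.

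Other genes of both phases were taken from a wider list. Of 32 other S phase genes 7 rose and 1 fell at P7 relative to E18.5, with a median log2 fold change of 0.60, beside 15.4% of all genes called higher. With size factors 4 rose (12.5%), beside 12.4% of all genes. The largest rises were those of Fen1, the flap nuclease of lagging strands (1.67 ± 0.34), Chaf1b, a subunit of the histone chaperone that follows the fork (1.44 ± 0.22), and Pole2, a subunit of polymerase epsilon (1.43 ± 0.14), and the one that fell was the transcription factor E2f2 (-1.11 ± 0.26). Of 38 other mitotic genes 9 rose and 1 fell, with a median of 0.50, and with size factors 4 rose (10.5%). The largest rises were those of the kinase Melk (1.69 ± 0.16), Mybl2, which encodes B-Myb (1.35 ± 0.15), and the microtubule depolymerase Kif2c (1.33 ± 0.14), and the one that fell was Pttg1, the securin that holds separase (-1.07 ± 0.26). The adjusted p values of these 8 genes ran from 7.59e-05 to 0.00829.

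In rat cardiomyocytes 2 mitotic genes fell with TSA, and the values of the others lay on the same side. All 29 measured mitotic genes had a log2 fold change below 0 (median -0.85, from -1.38 to -0.45), against 45.4% of all genes and a median of 0.03. Cdc20 and Kif20a fell, against 0.316% of all genes, and 0 rose, against 1.81%. By unadjusted p 22 of the 29 were under 0.05, all on the lower side, against 6.72% of all genes on that side. All 3 TSA libraries lay below all 3 DMSO libraries for 16 mitotic genes, against 10.1% of all genes. Of the 14 measured S phase genes none was called by limma or limma-voom, 1 was higher at an unadjusted p under 0.05, against 13.1% of all genes, and the median was 0.16. Whether the S phase and mitotic genes differ in response was not tested. Ccne1 alone among the S phase genes had all TSA libraries above all DMSO libraries, against 17.1% of all genes.

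Libraries with the same number varied together across genes in rat, so differences were also read within each number. Within the 3 pairs, 28 of 29 mitotic genes were lower with TSA in every pair, against 21.5% of all genes, with medians of -1.02, -0.49 and -1.18. The exception was Cdk1, at -0.79, 0.09 and -0.65. With the replicate number as a block in limma 5 mitotic genes fell (Cdc20, Cdca3, Cenpa, Nusap1 and Ube2c), against 0.587% of all genes, and Kif20a had an adjusted p of 0.0552. Without the third libraries, that is, without DMSO replicate 3 and TSA replicate 3, 4 fell (Ccnb1, Cdc20, Cdca3 and Kif20a), against 194 of 13812 genes. The 29 log2 fold changes then ran from -1.11 to -0.35. Without the first DMSO library, or without any 1 TSA library, no member was called. Of all genes, 4 of 13457 were called lower without DMSO replicate 1, and 21 of 13292 without TSA replicate 3. Without TSA replicate 1 or 2, 0 genes were called in either direction. Without DMSO replicate 2 or DMSO replicate 3, 7 or 3 members were called, beside 15 of 13449 or 164 of 13497 genes called lower.

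**Figure D3:**
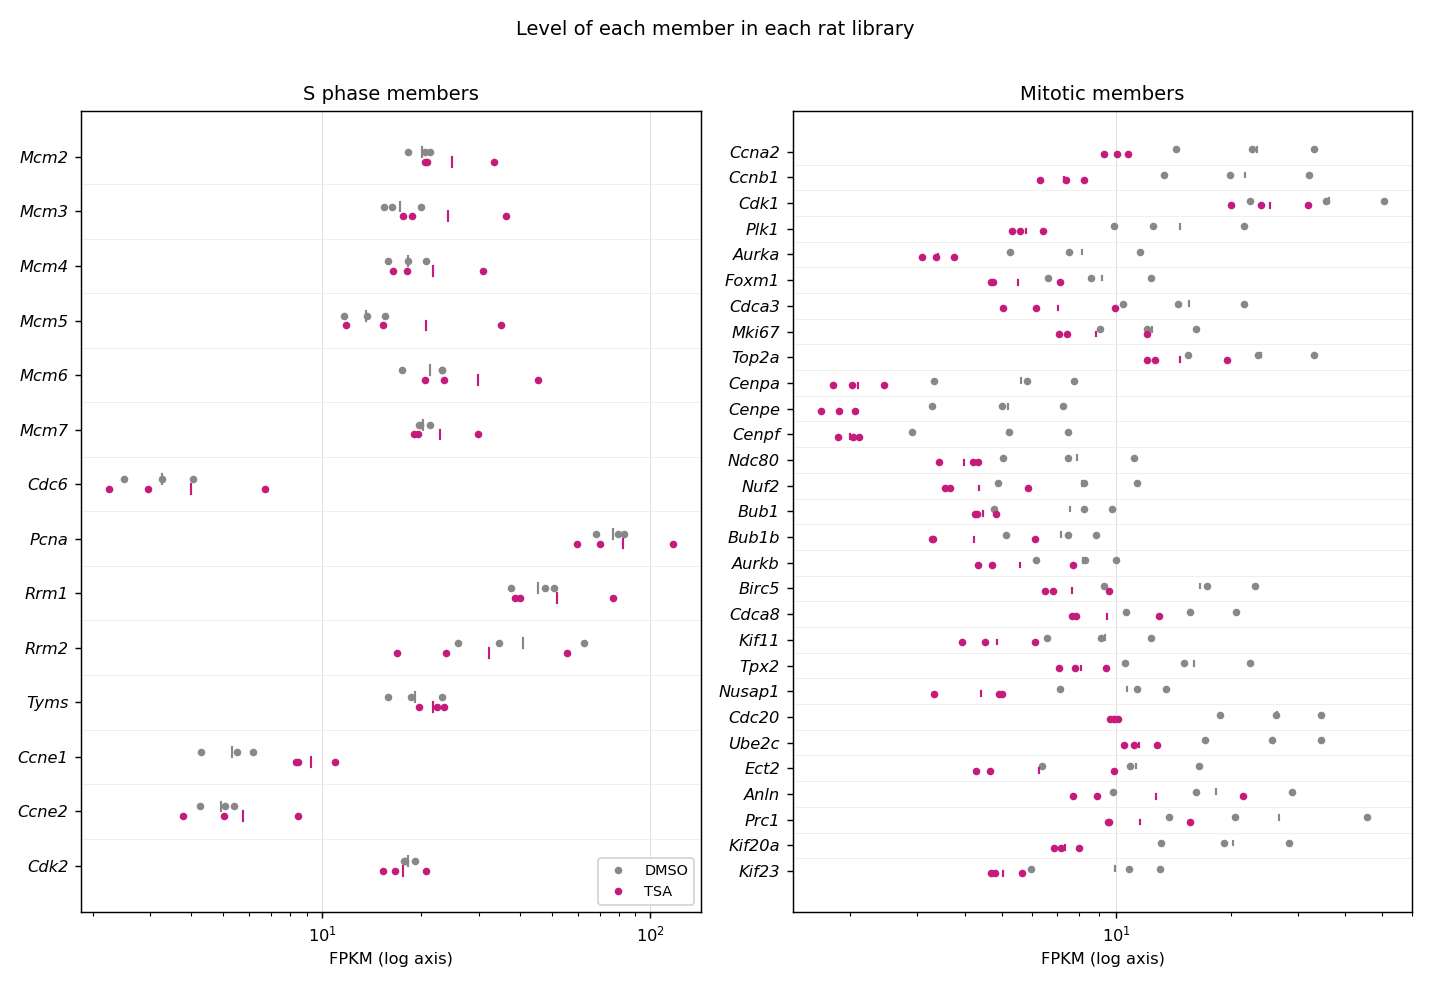
Level of each of the 43 measured genes in each rat library, as FPKM on a log axis, with 1 point for each of the 3 DMSO and 3 TSA libraries and a short vertical line at each mean. All TSA points lie left of all DMSO points for 16 mitotic genes and right of them for Ccne1.

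Cdc20 and Ube2c, which work with the anaphase-promoting complex, and its cyclin targets were among the largest differences. Cdc20 measured 26.3, 18.8 and 34.5 FPKM with DMSO and 9.87, 9.62 and 10.1 with TSA. The 3 TSA libraries were nearly equal and all lay below DMSO, with a log2 fold change of -1.30 ± 0.21 (adjusted p = 0.0244, and 0.0301 with the block). Leaving out the first DMSO library or any 1 TSA library kept the value between -1.32 and -1.29 but gave adjusted p values from 0.0730 to 0.155. Ube2c measured 25.7, 17.2 and 34.5 FPKM with DMSO and 11.2, 10.5 and 12.8 with TSA, also without overlap, at -1.05 ± 0.24 (adjusted p = 0.0636, and 0.0388 with the block). Ccnb1 had the lowest log2 fold change of all members at -1.38 ± 0.29 (adjusted p = 0.0537, and 0.0587 with the block), and measured 19.9, 13.4 and 32.2 FPKM with DMSO and 6.31, 8.22 and 7.40 with TSA. Ccna2 measured 22.8, 14.4 and 33.2 FPKM with DMSO and 10.1, 9.29 and 10.8 with TSA, at -1.07 ± 0.27 (adjusted p = 0.0858). Neither cyclin overlapped between the groups, and neither passed.

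The kinases and Foxm1 were lower too, without passing. Plk1 measured 12.5, 9.90 and 21.7 FPKM with DMSO and 6.43, 5.33 and 5.60 with TSA, with no overlap, at -1.14 ± 0.26 (adjusted p = 0.0660). Cdk1 measured 35.6, 22.4 and 50.7 FPKM with DMSO and 20.1, 24.0 and 32.0 with TSA, and its second TSA library was above its second DMSO library. Foxm1 measured 8.58, 6.62 and 12.4 FPKM with DMSO and 4.73, 4.70 and 7.14 with TSA, with 1 TSA library inside the DMSO range. Cdca3, a mitotic entry factor, had log2 fold changes within the pairs of -1.12, -0.92 and -1.05 and an adjusted p of 0.125, or 0.0254 with the block. Mki67 measured 12.1, 9.07 and 16.3 FPKM with DMSO and 7.41, 7.07 and 12.1 with TSA, at -0.45 ± 0.26, and Top2a 23.7, 15.4 and 33.0 FPKM with DMSO and 12.1, 12.6 and 19.5 with TSA, at -0.64 ± 0.29. For both, the third TSA library reached into the DMSO range.

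**Figure D4:**
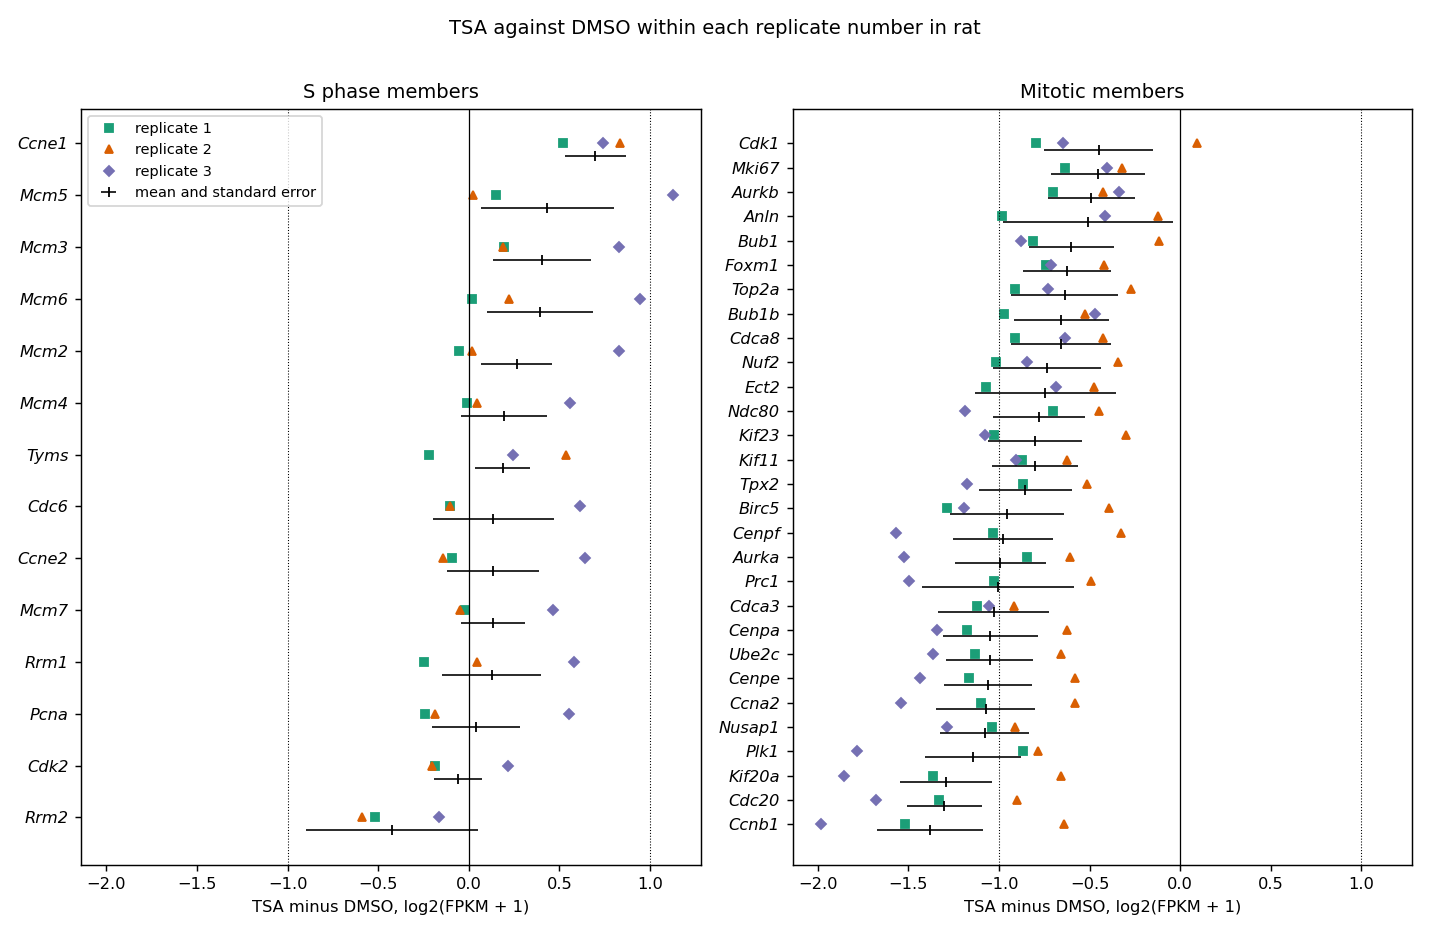
TSA minus DMSO on the log2(FPKM + 1) scale within each replicate number (coloured symbols) for 14 S phase and 29 mitotic genes, with the mean and 1 SE in black and dotted lines at a size of 1. The mitotic symbols lie left of 0 except that of Cdk1 in replicate 2 (0.09), and the replicate 3 symbols lie right of 0 for every S phase gene but Rrm2.

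Among kinetochore, passenger and spindle genes the third DMSO library was the highest in each gene given here. Cenpa measured 5.84, 3.32 and 7.76 FPKM with DMSO and 2.03, 1.81 and 2.45 with TSA, at -1.05 ± 0.26 (adjusted p = 0.0843, and 0.0498 with the block). Cenpf measured 5.22, 2.90 and 7.47 FPKM with DMSO and 2.03, 2.11 and 1.86 with TSA, at -0.98 ± 0.28. Ndc80 measured 7.49, 5.05 and 11.1 FPKM with DMSO and 4.21, 3.43 and 4.33 with TSA, at -0.78 ± 0.25. These 3 genes did not overlap between the groups. Bub1 measured 8.24, 4.76 and 9.73 FPKM with DMSO and 4.27, 4.31 and 4.84 with TSA, and TSA replicate 3 was just above DMSO replicate 2. Birc5 measured 17.3, 9.29 and 23.2 FPKM with DMSO and 6.52, 6.84 and 9.57 with TSA, with 1 TSA library above 1 DMSO library. Aurkb measured 8.31, 6.18 and 10.02 FPKM with DMSO and 4.72, 4.33 and 7.71 with TSA, at -0.49 ± 0.24, with 1 TSA library inside the DMSO range. Kif11 measured 9.13, 6.60 and 12.4 FPKM with DMSO and 4.52, 3.93 and 6.13 with TSA, at -0.80 ± 0.24, and Tpx2 15.1, 10.5 and 22.5 FPKM with DMSO and 7.81, 7.07 and 9.40 with TSA, at -0.85 ± 0.26. Both were lower in all TSA libraries than in any DMSO library. Nusap1, which stabilises spindle microtubules, had pair differences of -1.04, -0.91 and -1.29 (adjusted p = 0.0644, and 0.0267 with the block).

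Among the cytokinesis genes Kif20a measured 19.2, 13.1 and 28.4 FPKM with DMSO and 6.85, 7.97 and 7.14 with TSA, with no overlap. Its log2 fold change was -1.29 ± 0.25 (adjusted p = 0.0438). That call was lost in 9 of 14 alternatives, with adjusted p values from 0.0226 to 0.194 over all of them, and 5.44% of its rat exon bases are shared with Cdc23. Prc1 measured 20.6, 13.8 and 45.8 FPKM with DMSO and 9.58, 9.51 and 15.6 with TSA, at -1.01 ± 0.42, Ect2 10.9, 6.37 and 16.5 FPKM with DMSO and 4.66, 4.29 and 9.90 with TSA, at -0.74 ± 0.39, and Anln 16.2, 9.81 and 29.1 FPKM with DMSO and 7.70, 8.93 and 21.5 with TSA, at -0.51 ± 0.47. In these 3 genes the third TSA library lay within the DMSO range. The mitotic genes not given by library, Aurka, Cenpe, Nuf2, Bub1b, Cdca8 and Kif23, had log2 fold changes from -1.06 for Cenpe to -0.66 for Bub1b.

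The S phase genes were read with the same libraries. Mcm2 measured 21.4, 20.6 and 18.3 FPKM with DMSO and 20.6, 20.9 and 33.3 with TSA, Mcm5 13.7, 11.6 and 15.6 FPKM with DMSO and 15.4, 11.8 and 35.2 with TSA, and Cdc6 3.25, 2.49 and 4.04 FPKM with DMSO and 2.96, 2.25 and 6.72 with TSA. In each the third TSA library was the highest of the 6. The log2 fold changes of the 6 helicase subunits ran from 0.13 for Mcm7 to 0.43 for Mcm5, with standard errors of 0.18 to 0.37. Pcna measured 83.0, 68.1 and 79.6 FPKM with DMSO and 70.1, 59.7 and 117 with TSA. Rrm2 measured 34.6, 26.0 and 62.5 FPKM with DMSO and 23.9, 16.9 and 55.8 with TSA, the lowest log2 fold change of the phase at -0.42 ± 0.48, and was lower with TSA in every pair (-0.52, -0.59 and -0.16). Tyms measured 23.1, 15.8 and 18.7 FPKM with DMSO and 19.7, 23.4 and 22.3 with TSA, with overlapping groups. Ccne1 measured 5.51, 4.29 and 6.16 FPKM with DMSO and 8.35, 8.43 and 10.96 with TSA, higher in all TSA libraries, at 0.70 ± 0.17 (adjusted p = 0.0723, and 0.0449 with the block), under the limit of size. Ccne2, which in rat shares 10.4% of its exon bases with Ints8, measured 5.40, 4.26 and 5.06 FPKM with DMSO and 5.01, 3.77 and 8.45 with TSA, and Cdk2 19.2, 17.9 and 17.7 FPKM with DMSO and 16.7, 15.4 and 20.8 with TSA. The median S phase difference was -0.07, 0.02 and 0.60 in pairs 1, 2 and 3, so the third pair stood apart from the other 2.

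All 38 other mitotic entries, Spag5 being listed under 2 identifiers, also had log2 fold changes below 0 (median -0.46). None was called by limma, and 13 had an unadjusted p under 0.05, against 6.72% of all genes on the lower side. Pttg1 was the lowest at -1.38 ± 0.29 (adjusted p = 0.0522). The 32 other S phase genes had a median of 0.05, with none called and none at an unadjusted p under 0.05. The summed levels of cell type markers stand beside these values. Fibroblast markers summed to 6532 to 7137 FPKM with DMSO and to 3605 to 6043 with TSA, macrophage markers to 493 to 1031 and 424 to 558, and smooth muscle and pericyte markers to 910.5 to 2411 and 678 to 1643. Endothelial markers summed to 19.8 to 27.4 and 28.9 to 34.7, erythroid markers to 4.55 to 25.7 and 32.9 to 56.4, and cardiomyocyte markers to 14890 to 25627 and 13484 to 36789. Their part in the mitotic difference was not tested. Of all these markers 0 fell by limma, and Cldn5 (endothelial), C1qc (macrophage) and Rgs5 (pericyte) rose. The rest of a list did not always go the same way. Log2 fold changes below 0 were found for 5 of 9 macrophage markers (median -0.80) and 6 of 9 fibroblast markers (median -0.37). They were also found for 5 of 10 smooth muscle and pericyte (median -0.009), 2 of 9 endothelial (median 0.39) and 2 of 12 cardiomyocyte markers (median 0.18).

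At the promoters ATAC-seq peaks were read as present or absent within 2.5 kb of a transcript start. A peak in both libraries of a time point was found at 38 of 45 members at E18.5, 26 on P1, 45 on P3 and 44 on P7. The shares of all 21951 protein-coding genes were 37.3%, 27.2%, 63.0% and 57.5%, and those of the 12468 protein-coding genes that passed the RNA filter, as every member did, were 60.7%, 43.8%, 92.6% and 88.3%. All 8 libraries held a peak at 24 members, against 39.1% of the genes that passed that filter. The lists differed in length, from 13149 and 14910 peaks at E18.5 to 95257 and 52040 at P3, and P1 peaks were the narrowest at a mean of 214 and 230.3 bp. When the 13149 peaks of highest score were taken from each library, 43 and 33 members held a peak at E18.5, 30 and 22 on P1, 28 and 33 on P3, then 34 and 42 on P7. The matching shares of all genes were 44.7% and 38.9%, 32.0% and 23.6%, 27.4% and 34.9%, then 32.4% and 42.4%. The strongest peak of a member had its summit at a median of 77 bp from the nearest start, and 295 of 323 summits lay within 250 bp of it.

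**Figure D5:**
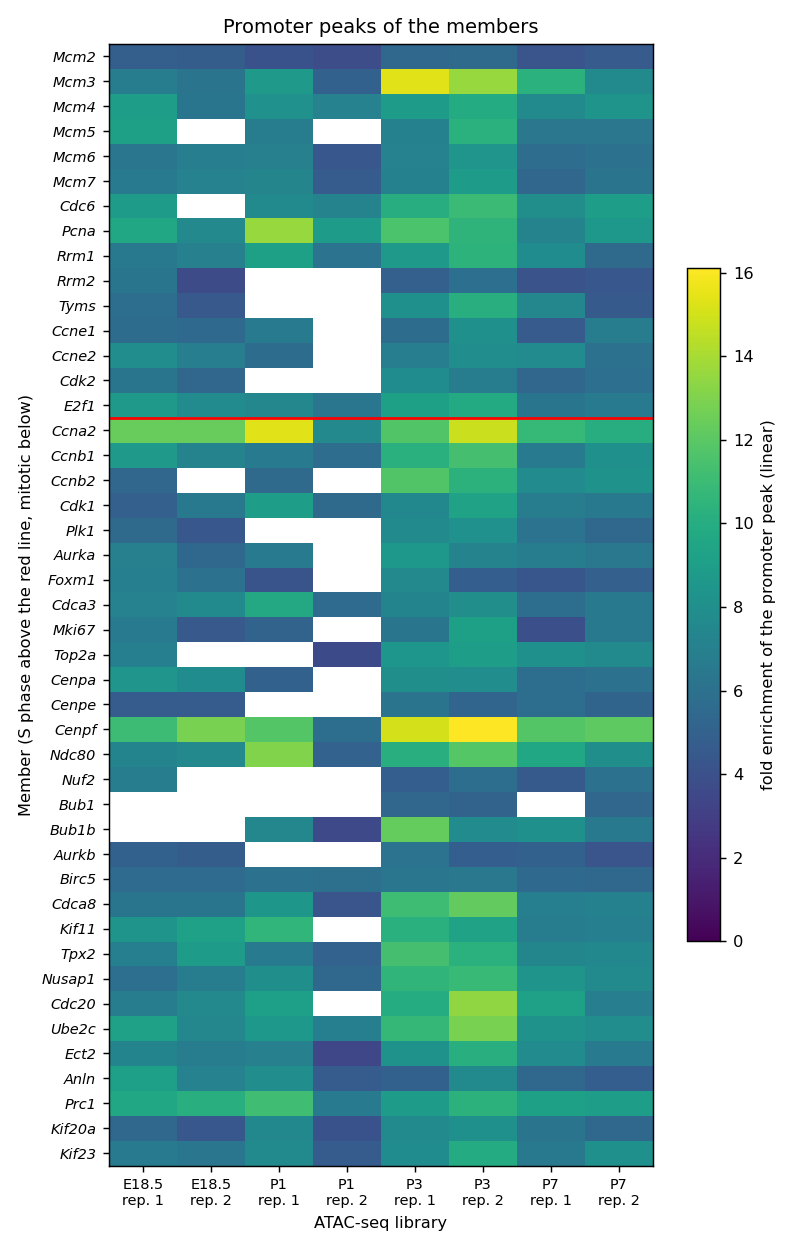
Fold enrichment of the strongest promoter peak of each member (rows) in each ATAC-seq library (columns), with white for no peak within 2.5 kb. P3 and P7 have 1 white cell in all, that of Bub1 in the first P7 library, and white cells are most frequent in the second P1 library.

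Fold enrichment over the local background ran from 3.40 to 16.1. Cenpf, at P3, had the strongest. Cenpf read 11.1 and 12.9 at E18.5, 11.8 and 5.79 on P1, 15.0 and 16.1 on P3, then 11.8 and 12.1 on P7. Ccna2 read 12.3 and 12.4, 15.4 and 7.596, 11.7 and 14.8, and 10.8 and 10.02. Both were thus held in every library while their RNA did not pass at any age. Mcm3, whose RNA rose, read 6.83 and 6.17 at E18.5 and 15.4 and 13.6 at P3. The enrichment of a peak depends on its library and was not tested between ages. The median over all genes with a promoter peak also moved. It was 6.56 and 6.19 at E18.5, 6.62 and 5.06 on P1, 6.98 and 8.02 on P3, then 5.63 and 5.75 on P7.

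A gain relative to E18.5 was a peak in both later libraries and in neither E18.5 library. Bub1 and Bub1b alone had a peak in neither E18.5 library, so no other member could gain one. A peak in both E18.5 libraries was held by 38 of 45 members but by 37.3% of all genes. The shares of all genes that gained a peak are therefore not a like measure. Bub1b, a checkpoint protein, gained one at P1 (1.16% of all genes), P3 (15.1%) and P7 (10.2%). Bub1 gained one at P3, at 5.31 and 5.10, and at P7 held one in the second library only. Against the second E18.5 library alone 2, 7 and 6 members gained a peak at P1, P3 and P7, and without the first P7 library 2 did at P7. At E18.5, where neither Bub1 nor Bub1b had a listed peak, their RNA was above 1 FPKM in both libraries. The opposite case, a peak in both E18.5 and neither P1 library, was found at Rrm2, Tyms, Cdk2, Plk1, Cenpe and Aurkb. The share was 2.60% of all genes and 4.02% of those that passed the RNA filter. Among genes with a peak in both E18.5 libraries, it was found at 570 of 8178 genes and at 6 of 38 members. All 6 held a peak again in both P3 and both P7 libraries. Tyms read 5.82 and 4.49 at E18.5, 8.05 and 10.1 at P3, and 7.47 and 4.57 at P7. Plk1 read 5.54 and 4.35, 7.61 and 8.14, and 6.14 and 5.42. At P1, where no peak was listed for either, both genes had risen in RNA. The list of the second P1 library held a peak at fewer genes (29.3% of all) than any other list did. The part of peak calling in the absence of P1 peaks was not tested. Cenpa, whose RNA fell, held a peak in every library but the second at P1, at 8.37 and 7.80 at E18.5 and 5.83 and 5.98 at P7. The medians of all genes with a promoter peak were 6.56 and 6.19 at E18.5 and 5.63 and 5.75 at P7.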

How the data were processed

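RNA-seq and ATAC-seq libraries of mouse cardiomyocytes and RNA-seq libraries of rat cardiomyocytes were taken as deposited. Per the labels and methods, the authors aligned poly-A RNA reads with HISAT2 (2.1.0) and estimated transcripts with StringTie (1.3.5 in the mouse files) on mm10 with GENCODE vM21 or on rn6, without strand being stated, and deposited coverage, FPKM and TPM values per transcript. For ATAC-seq the authors trimmed reads, aligned them with Bowtie2, removed duplicates and called peaks per sample with MACS2, depositing a score, a fold enrichment ratio and −log10 p-values and q-values.

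Transcript FPKM was summed per gene, and genes with at least 1 FPKM in at least 2 mouse or 3 rat libraries were tested on log2(FPKM + 1) with limma 3.58.1 in R 4.3.3 (two-sided, Benjamini-Hochberg over all genes), with all mouse libraries in 1 fit. Fold changes on this scale understate the change of low genes. The authors tested counts with edgeR, which was not done here. In simulated data for P7 against E18.5 (13979 genes), 91% of genes changed by a log2 of 1.5 and 100% by 3 were called, and for TSA against DMSO (13625 genes) 90% and 97%. Noise was drawn independently for each gene, so deviations shared by same-numbered rat libraries were not simulated. The changed genes were drawn at random from genes above a set level, so these shares are not those of the members.

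The 45 members and all lists (other S phase genes, other mitotic genes, and markers of cardiomyocytes, fibroblasts, endothelial cells, erythroid cells, macrophages, and smooth muscle cells and pericytes) were chosen with earlier results of these data known. Values in every library are given for 30 members fixed by name, for the largest rise and fall, and for members that moved against their phase; of the other lists, up to 3 called genes with the largest rise and fall are named.

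Rat libraries with the same number deviated together from their group means across genes (r = 0.224, 0.194 and 0.346), and each library correlated best with its own number, so that the blocked fit is given beside rat results. The number of libraries, not depth alone, limits precision. Alternatives were TPM, size factors, limma-voom on estimated reads, a pseudocount of 0.1, other filters, only the ages compared, a replicate block, and each library left out; leaving out replicate 3 of both rat groups was chosen after seeing the data. Peaks within 2.5 kb of a transcript start were assigned to genes, with other windows, the summit alone, and equal or shortened lists as alternatives. HiChIP libraries were not analysed here.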

Additional observations from a re-analysis of the deposited data

How the results depend on the processing

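Members called were recounted under each alternative. On TPM, 12, 17 and 18 members rose at P1, P3 and P7 against E18.5 and 0 fell at P1 or P7; with size factors 6 rose and 1 fell at P3, and limma-voom also called 1 lower at P3. Leaving out 1 library at a time gave 5 to 10 members higher at P1, 0 to 1 lower at P3 and 0 to 1 lower at P7, and 0 to 1 higher for P7 against P1. For TSA against DMSO 1 member fell with limma-voom, with a mean FPKM of at least 5, without a filter and with size factors. Without replicate 3 of both groups 4 fell, with the replicate block 5 fell, and 0 to 7 fell when 1 library was left out. Of all genes 0 to 164 were called lower when 1 library was left out. In the mouse, same-numbered libraries had correlations of deviations from -0.096 to 0.171, so the numbers were not taken to pair them, and the replicate block moved 0 mouse calls of members. Where leaving out a library left 1 in its group, that library was assumed to vary like the others. For peaks, the upper 0.5 of each list left 24 members with a peak in both E18.5 libraries and gave 9 gains at P3 and 9 at P7. With an equal number of top peaks 24 members had peaks in both libraries of P3, and 0 gained one at P1 or P3. Leaving out 1 ATAC-seq library gave 1 to 2 gains at P1, 2 to 7 at P3 and 1 to 6 at P7. The causes were not tested. Recovery of log2 fold changes smaller than 1.5 was not simulated, and the length of a peak list limits what absence of a peak can show.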
